A study of Mus musculus with 12 samples.

Results

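The genes described here are 9 members of the interferon signalling pathway in mouse skin: the receptor chains Ifnar1 and Ifnar2 and the transcription factors Stat2, Irf9, Irf1, Irf3, Irf5, Irf7 and Irf8. They were chosen by gene name, as every non-control probe whose name on the array is 1 of these 9 symbols. That gave 12 probes of 39429 on the array and 9 genes of 20469 with a measured level. All 9 genes passed the filter on dim probes, and the probe used for each was well above background on all 12 arrays.

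RNA came from the skin of male C57BL/6 mice about 8 weeks old. The 2 incised groups had a sutured incision 1 cm long, injected intradermally 72 h after wounding with vehicle (PBS, phosphate-buffered saline) or with 100 nmol of a mimic of the microRNA miR-29b. The 2 intact groups were uninjured skin injected with PBS or with 100 nmol of an inhibitor of miR-29 (antimiR-29). Skin was taken 24 h after injection, with 3 biological replicates in each group and 1 array for each. No oligonucleotide of unrelated sequence was among the groups analysed here, so the treatments are set against vehicle alone. Each array set skin RNA, labelled with Cy5, against a universal mouse reference RNA, labelled with Cy3, with no dye swap. A level below is the log2 ratio of skin to reference, where 0 means equal to the reference, and levels are compared only within a gene.

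Type I interferons bind the receptor made of the IFNAR1 and IFNAR2 chains, whose attached kinases TYK2 and JAK1 phosphorylate STAT proteins, among them STAT2. Phosphorylated STAT2 and IRF9 are parts of ISGF3, the complex that binds interferon-stimulated response elements (ISRE) in the promoters of antiviral genes. Upstream, IRF3, IRF5 and IRF7 are activated by sensors of nucleic acids and switch on interferon genes, while IRF1 and IRF8 act downstream of interferon gamma and, for IRF8, in the development of myeloid cells.

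The treatments act on the miR-29 family, whose mature sequences are given to show the seed, bases 2 to 8 in capitals, which is the same in all 3 (RefSeq, GRCm38.p6). The exact chemistry of the injected mimic and inhibitor is not given in the sources used here.
mmu-miR-29a-3p: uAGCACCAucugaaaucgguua
mmu-miR-29b-3p: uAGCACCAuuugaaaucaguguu
mmu-miR-29c-3p: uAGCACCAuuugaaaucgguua

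Both probes below are printed because their genome positions span more bases than the probe holds, 351 for Irf7 and 1587 for Ifnar1, so each crosses at least 1 splice junction and reads spliced RNA. The positions of all probes are in build mm9, as the scanner files give them, and no annotation of that build was used to place the others in exons or untranslated regions.
Irf7 probe A_51_P421876 (mm9, chr7:148450664-148451014, minus strand): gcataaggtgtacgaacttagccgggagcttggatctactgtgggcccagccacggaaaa
Ifnar1 probe A_55_P2438722 (mm9, chr16:91503764-91505350, plus strand): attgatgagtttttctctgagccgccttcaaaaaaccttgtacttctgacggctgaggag

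The 250 bases before the RefSeq start site are printed for the 5 members whose RNA rose after antimiR-29. Capitals mark matches to the ISRE letters GAAANNGAAA or to the letters TTCNNNGAA of the gamma-activated site (GAS, a site bound by pairs of STAT proteins), searched on both strands.
Stat2 (GRCm38.p6, chr10:128270248-128270497, plus strand): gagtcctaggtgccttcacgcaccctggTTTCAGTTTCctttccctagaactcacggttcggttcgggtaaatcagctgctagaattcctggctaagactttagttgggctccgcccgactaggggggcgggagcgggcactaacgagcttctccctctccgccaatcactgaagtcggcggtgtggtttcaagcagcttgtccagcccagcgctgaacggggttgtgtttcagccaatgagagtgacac
Irf9 (GRCm38.p6, chr14:55603735-55603984, plus strand): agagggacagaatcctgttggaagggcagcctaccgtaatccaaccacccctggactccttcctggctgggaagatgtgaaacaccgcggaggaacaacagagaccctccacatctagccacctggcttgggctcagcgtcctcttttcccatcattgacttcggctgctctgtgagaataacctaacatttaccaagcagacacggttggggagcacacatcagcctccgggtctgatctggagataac
Irf1 (GRCm38.p6, chr11:53769764-53770013, plus strand): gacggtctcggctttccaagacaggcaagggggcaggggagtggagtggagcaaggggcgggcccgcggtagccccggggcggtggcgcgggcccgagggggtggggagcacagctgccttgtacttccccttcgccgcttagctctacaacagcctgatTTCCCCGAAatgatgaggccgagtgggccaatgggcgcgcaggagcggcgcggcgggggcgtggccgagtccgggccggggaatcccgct
Irf7 (GRCm38.p6, chr7:141266425-141266674, minus strand): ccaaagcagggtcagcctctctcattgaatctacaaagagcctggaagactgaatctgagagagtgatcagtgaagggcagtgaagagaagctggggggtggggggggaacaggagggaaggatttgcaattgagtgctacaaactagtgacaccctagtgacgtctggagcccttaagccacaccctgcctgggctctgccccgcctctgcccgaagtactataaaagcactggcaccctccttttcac
Irf8 (GRCm38.p6, chr8:120736108-120736357, plus strand): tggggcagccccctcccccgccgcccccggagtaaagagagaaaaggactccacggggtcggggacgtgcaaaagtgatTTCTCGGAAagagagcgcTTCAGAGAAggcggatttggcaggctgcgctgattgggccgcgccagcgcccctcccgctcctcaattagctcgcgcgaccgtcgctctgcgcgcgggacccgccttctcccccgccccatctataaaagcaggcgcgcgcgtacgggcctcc
Stat2 held the ISRE letters from -222 to -213, read on the opposite strand. Irf1 held the GAS letters once, from -90 to -82, and Irf8 held them at 2 places, from -171 to -163 and from -153 to -145. The windows of Irf7 and Irf9 held neither. Among the other members, Ifnar2 held the GAS letters from -214 to -206, and the windows of Ifnar1, Irf3 and Irf5 held neither. Irf1, Irf8 and Irf9 each have a further start site in the table, and its window held neither. Of 32851 promoter windows of that length, 2.98% held the ISRE letters and 7.02% the GAS letters. A match of letters is a description of the sequence, not of binding.

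On the arrays, 65.6 to 73.8% of probes were well above background in the Cy5 channel, no spot was saturated, and the median Cy5 signal was 3.67 to 5.00 times the background. The arrays lay on 3 slides of 4. All incised PBS arrays and mimic replicate 1 were on the first slide. Mimic replicates 2 and 3 and intact PBS replicates 1 and 2 were on the second, and all antimiR-29 arrays with intact PBS replicate 3 on the slide numbered 3. The intact PBS arrays were the least alike. Their median correlations to the other arrays of their group over all genes were 0.946, 0.939 and 0.921 for replicates 1 to 3. On the arrays of the other groups these were 0.964 to 0.976. Keratinocyte and fibroblast markers were above the reference on every array, with mean log2 ratios of 4.18 to 4.91 for 7 keratinocyte genes and 2.43 to 3.92 for 7 fibroblast genes. Samples here are whole skin, so more cells of a type and more RNA per cell cannot be told apart.

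The first question was which members differed in intact skin 24 h after miR-29 was inhibited. Of the 9 members, 5 rose with antimiR-29 and none fell. They were Stat2, Irf9, Irf1, Irf7 and Irf8, by 1.76-fold to 3.46-fold, against 5.24% of all 20457 genes tested that were called higher and 4.47% called lower. The receptor chains, Irf3 and Irf5 did not pass the test. In the same 5 genes every antimiR-29 array lay above every intact PBS array, as 14.1% of all genes did. The median log2 difference of the members was 0.82, beside 0.01 over all genes. A call means a Benjamini-Hochberg adjusted p under 0.05 over all genes in limma's moderated test.

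The second question was which members differed in incised skin 24 h after the mimic. No member was called, where 0.591% of 20461 genes were called in either direction. At an unadjusted p under 0.05, 2 of the 9 passed, Irf5 and Irf8, as did 2553 of the 20461 genes. All 9 differences were above 0, with a median of 0.15 beside a median near 0 over all genes, and the largest was 0.62 in Irf5. In 3 members, Irf5, Irf8 and Ifnar1, every mimic array lay above every incised PBS array, as 12.5% of all genes did.

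The third comparison set incised against intact skin, both under PBS. Here 7 of the 9 members rose and none fell, where 9.86% of 20464 genes were called higher and 5.55% lower. Irf3 and Irf5 were the members that did not pass. In the same 7 members every incised PBS array lay above every intact PBS array, as 19.8% of all genes did. This comparison shares its intact PBS arrays with the antimiR-29 comparison and its incised PBS arrays with the mimic comparison, so the sets of values are not independent. No slide held both PBS groups, and with the slide as a fixed block only Irf8 was called (1.46 ± 0.18, adjusted p = 0.0469). With only the 2 PBS groups in the fit Irf9 and Ifnar2 were no longer called, and with Cy5 alone or the authors' deposited log2 table Irf1 was not. Without incised PBS replicate 1 the count was 4, with Stat2, Irf1 and Irf7 no longer called.

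**Figure D1:**
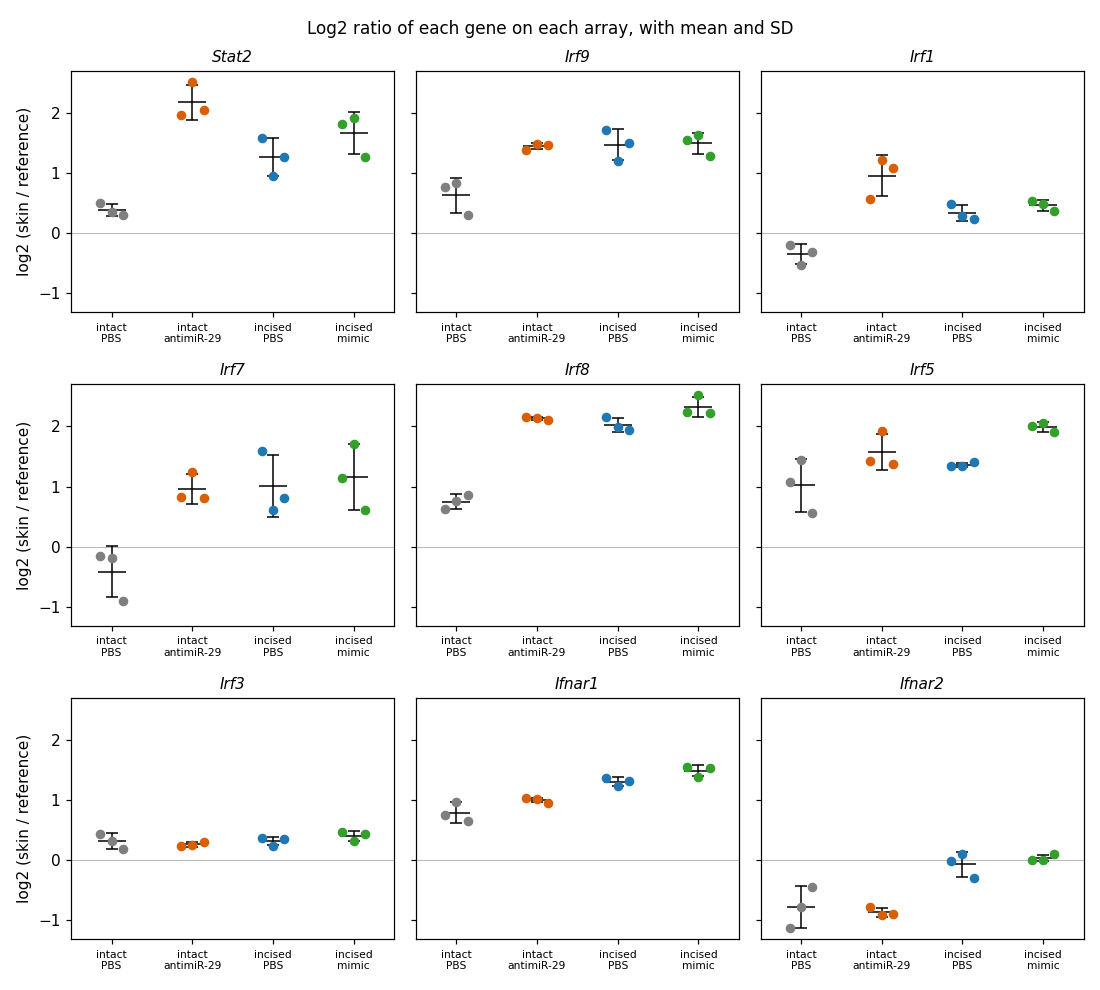
Log2 ratio of skin to reference (vertical axis) of each of the 9 genes on each of the 12 arrays, 1 point an array, with the mean and SD (n = 3) of each group in black. Stat2, Irf9, Irf1, Irf7 and Irf8 are low on all 3 intact PBS arrays, Irf3 is level across the groups, and Ifnar2 separates the incised arrays from the intact ones.

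Stat2 encodes the STAT protein particular to ISGF3. Its probe A_55_P2059606 lies at chr10:127729834-127729893 (mm9, plus strand). Its log2 ratios were 0.51, 0.35 and 0.31 on the intact PBS arrays and 1.97, 2.51 and 2.05 on the antimiR-29 arrays. They were 1.58, 0.94 and 1.26 on the incised PBS arrays and 1.81, 1.91 and 1.27 on the mimic arrays. The intact PBS arrays were the 3 lowest of the 12 and the antimiR-29 arrays the 3 highest. The rise with antimiR-29 was 1.79 ± 0.21 (SE; 3.46-fold, adjusted p = 0.00061). Incised exceeded intact skin under PBS by 0.88 ± 0.21 (adjusted p = 0.0176). The mimic difference was 0.40 ± 0.21 (adjusted p = 0.468), and the mimic and incised PBS arrays overlapped. Stat2 was higher in antimiR-29 skin than in incised PBS skin by 0.91 ± 0.21 (adjusted p = 0.0109). With the slide as a fixed block the difference was 1.25 ± 0.51 and was not called (adjusted p = 0.224). Every mimic array lay below every antimiR-29 array, with a log2 difference of -0.51 (95% interval from -0.96 to -0.06) that did not pass after adjustment (adjusted p = 0.0952).

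Irf9 encodes the DNA-binding partner of the STATs in ISGF3. Its probe A_55_P2114938 lies at chr14:56228806-56228865 (mm9, plus strand). Its log2 ratios were 0.77, 0.83 and 0.30 on the intact PBS arrays and 1.39, 1.49 and 1.47 on the antimiR-29 arrays. On the incised PBS arrays they were 1.71, 1.21 and 1.50, and on the mimic arrays 1.55, 1.63 and 1.29. The 3 intact PBS arrays were low and the 9 others lay together between 1.21 and 1.71. Irf9 rose by 0.82 ± 0.16 with antimiR-29 (adjusted p = 0.0105) and was higher by 0.84 ± 0.16 in incised skin (adjusted p = 0.00758). With the mimic it differed by 0.02 ± 0.16 (adjusted p = 0.98), with a 95% interval from -0.34 to 0.37. The rise with antimiR-29 was no longer called with the Cy5 channel taken alone (0.75, adjusted p = 0.0735), and with only the 2 intact groups in the fit it lay just above the threshold.

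Irf1 encodes an early factor induced by interferon gamma. Its probe A_55_P2000062 lies at chr11:53590746-53590805 (mm9, plus strand). On its bright probe the log2 ratios were -0.19, -0.53 and -0.31 on the intact PBS arrays and 0.57, 1.22 and 1.09 on the antimiR-29 arrays. They were 0.49, 0.29 and 0.24 on the incised PBS arrays and 0.54, 0.48 and 0.37 on the mimic arrays. As for Stat2, the intact PBS arrays were the 3 lowest of the 12 and the antimiR-29 arrays the 3 highest. The rise with antimiR-29 was 1.30 ± 0.16 (2.46-fold, adjusted p = 0.000775). Incised skin was higher under PBS by 0.68 ± 0.16 (adjusted p = 0.0159), and the mimic difference was 0.13 ± 0.16 (adjusted p = 0.822). AntimiR-29 skin was above incised PBS skin by 0.62 ± 0.16 (adjusted p = 0.0187), and mimic-treated skin was below antimiR-29 skin by a log2 difference of -0.49 ± 0.16 (adjusted p = 0.0422). Neither of these 2 calls held with the slide as a fixed block (0.68 ± 0.39, adjusted p = 0.367, and -0.48 ± 0.31, adjusted p = 0.384). In the authors' deposited log2 table the antimiR-29 difference was 0.77 and was not called (adjusted p = 0.236).

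A dimmer Irf1 probe, A_55_P2000067, is assigned to another transcript accession of the gene. It was well above background on 3 of 12 arrays only, and all its group means lay between 0.00 and 0.06. Its antimiR-29 difference was 0.03 ± 0.08, against 1.30 for the bright probe. The probes of Irf1 therefore do not give the same difference, and the dim one is near its background.

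Irf7 encodes the inducible factor that amplifies interferon alpha production. Its log2 ratios were -0.15, -0.19 and -0.89 on the intact PBS arrays and 0.83, 1.24 and 0.80 on the antimiR-29 arrays. On the incised PBS arrays they were 1.59, 0.62 and 0.81, and on the mimic arrays 1.14, 1.71 and 0.62. All 9 arrays of the other groups were above the intact PBS arrays, and replicates spread more than for any other member, with a pooled SD of 0.45. Irf7 rose by 1.37 ± 0.32 with antimiR-29 (adjusted p = 0.0227) and was higher by 1.42 ± 0.32 in incised skin (adjusted p = 0.0148). The mimic difference was 0.15 ± 0.32, with a 95% interval from -0.55 to 0.85. The antimiR-29 call was lost without intact PBS replicate 3 (1.13, adjusted p = 0.0559) and without antimiR-29 replicate 2 (1.23, adjusted p = 0.0857).

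Irf3 encodes the constitutive factor activated first by nucleic acid sensors. Its probe A_55_P2083939 lies at chr7:52257700-52257759 (mm9, plus strand). Its 12 log2 ratios lay between 0.18 and 0.48, and the group means were 0.26 (antimiR-29), 0.31 (intact PBS), 0.32 (incised PBS) and 0.41 (mimic). It passed the test in none of the 7 contrasts fitted. The antimiR-29 difference was -0.05 with a 95% interval from -0.24 to 0.14, and the incised difference was 0.01 with an interval from -0.18 to 0.19. The sign of these 2 differences changed under some of the alternatives.

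Irf5 encodes a factor that acts downstream of Toll-like receptors in macrophages. Its probe A_51_P346668 lies at chr6:29486901-29486960 (mm9, plus strand). Its log2 ratios were 1.07, 1.44 and 0.56 on the intact PBS arrays and 1.43, 1.92 and 1.37 on the antimiR-29 arrays. They were 1.35, 1.34 and 1.40 on the incised PBS arrays and 2.00, 2.05 and 1.90 on the mimic arrays. Irf5 was the member with the largest mimic difference, 0.62 ± 0.20, and the 3 mimic arrays lay above the 3 incised PBS arrays, but it did not pass (adjusted p = 0.207). With only the 2 incised groups in the fit it was called (adjusted p = 0.0221). The antimiR-29 difference was 0.55 ± 0.20 (adjusted p = 0.113). It was 1.01 on slide 3 alone, where there is 1 PBS array, and was called without intact PBS replicate 2 (0.76, adjusted p = 0.0307). The mimic group was above intact PBS skin by 0.96 ± 0.20 (adjusted p = 0.00589).

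Irf8 encodes a factor of monocytes, macrophages and dendritic cells that is also induced by interferon gamma. Its probe A_52_P354823 lies at chr8:123280324-123280383 (mm9, plus strand). Its log2 ratios were 0.63, 0.76 and 0.87 on the intact PBS arrays and 2.15, 2.14 and 2.11 on the antimiR-29 arrays. On the incised PBS arrays they were 2.16, 1.99 and 1.94, and on the mimic arrays 2.24, 2.52 and 2.22. A gap of more than 1 log2 unit separated the intact PBS arrays from the 9 others. Irf8 rose by 1.38 ± 0.10 with antimiR-29 (2.61-fold, adjusted p = 6.25e-05) and was higher by 1.27 ± 0.10 in incised skin (adjusted p = 0.000248). It had the smallest adjusted p of the members in both comparisons. The mimic difference was 0.30 ± 0.10 (adjusted p = 0.238), with every mimic array above every incised PBS array. AntimiR-29 and incised PBS skin differed by 0.11 ± 0.10 (adjusted p = 0.484).

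Ifnar1 encodes the receptor chain that binds TYK2. Its probe A_55_P2036337 lies at chr16:91510673-91510732 (mm9, plus strand). On this probe, its brightest, the log2 ratios were 0.75, 0.98 and 0.65 on the intact PBS arrays and 1.03, 1.01 and 0.96 on the antimiR-29 arrays. They were 1.37, 1.23 and 1.32 on the incised PBS arrays and 1.55, 1.39 and 1.54 on the mimic arrays. The 6 incised arrays were all above the 6 intact ones. Incised exceeded intact skin under PBS by 0.51 ± 0.09 (adjusted p = 0.00604), and the antimiR-29 difference of 0.21 ± 0.09 did not pass (adjusted p = 0.202).

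Ifnar1 has 2 more probes, which differed in the same direction between incised and intact skin without passing the test over probes. The splice-junction probe printed above gave 0.37 ± 0.12 (adjusted p = 0.0616) and A_55_P2454784 gave 0.26 ± 0.10 (adjusted p = 0.0947). On the latter, the mimic arrays at 0.05, 0.21 and 0.13 lay above the incised PBS arrays at -0.36, -0.28 and -0.10, a difference of 0.37 ± 0.10 (adjusted p = 0.136). The splice-junction probe was dim, well above background on 11 of 12 arrays, with Cy5 at 1.87 to 3.98 times the background. Cy5 was 4.1 to 8.0 times the background on A_55_P2454784 and 27.7 to 69.0 times on the brightest probe. The 3 probes read the RNA of 1 gene and are not replicates.

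**Figure D2:**
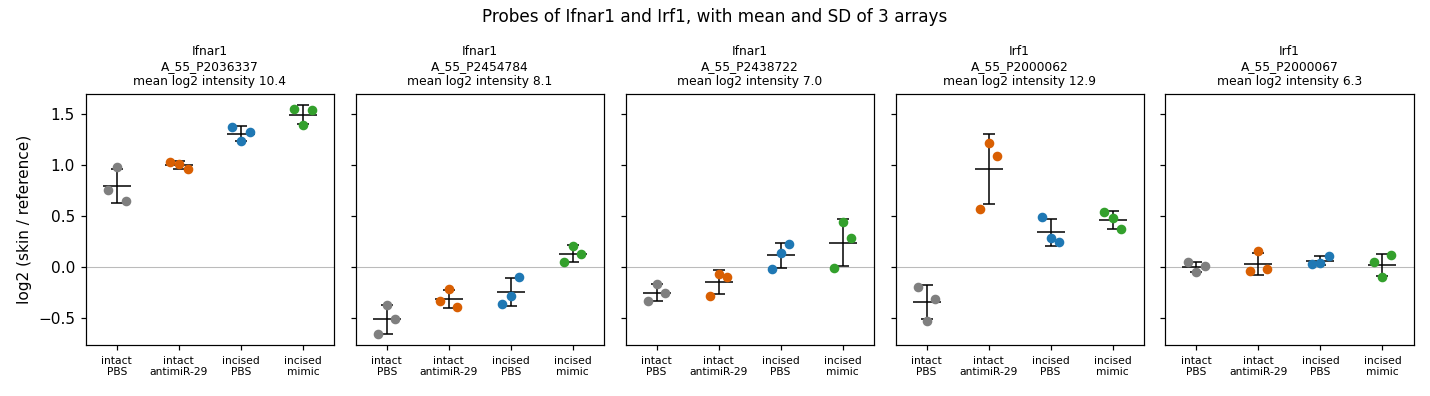
Log2 ratio of skin to reference (vertical axis) of the 3 Ifnar1 probes and 2 Irf1 probes on each array, ordered by mean intensity within a gene, with mean and SD (n = 3). The Ifnar1 probes are all lowest in intact PBS skin, while the dim Irf1 probe stays near 0 in every group.

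Ifnar2 encodes the receptor chain that binds JAK1. Its probe A_52_P190405 lies at chr16:91394044-91394103 (mm9, plus strand). Its log2 ratios were -1.13, -0.77 and -0.44 on the intact PBS arrays and -0.78, -0.92 and -0.90 on the antimiR-29 arrays. They were -0.01, 0.10 and -0.29 on the incised PBS arrays and 0.01, 0.01 and 0.10 on the mimic arrays. As for Ifnar1, the 6 incised arrays lay above the 6 intact ones, and here the 2 intact groups overlapped throughout. The incised difference was 0.71 ± 0.16 (adjusted p = 0.0129), and the antimiR-29 difference was -0.08 ± 0.16 (adjusted p = 0.796), with a 95% interval from -0.43 to 0.26.

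The members also differed between the treated intact skin and the wound. AntimiR-29 skin was above incised PBS skin in Stat2 and Irf1, where 9.89% of 20454 genes were called higher. It was below in Ifnar1, by a log2 difference of -0.31 ± 0.09 (adjusted p = 0.0395), and in Ifnar2, at -0.80 ± 0.16 (adjusted p = 0.0054), where 11.1% of genes were called lower. The Ifnar1 value is that of its brightest probe. On A_55_P2454784 the antimiR-29 arrays (-0.39 to -0.22) overlapped the incised PBS arrays (-0.36 to -0.10). On the dim splice-junction probe they lay below (-0.28 to -0.06 against -0.02 to 0.22). These groups shared no slide, as all incised PBS arrays were on the first slide and all antimiR-29 arrays on slide 3. With the slide as a fixed block, estimated through the other groups, none of the 9 members was called (Ifnar2 -1.36, adjusted p = 0.0739). The Ifnar1 call was lost without any 1 of the 6 arrays compared and the Irf1 call without 4 of the 6. Irf7, Irf8 and Irf9, which had risen in each of these groups against intact PBS skin, differed between them by -0.05, 0.11 and -0.02 and did not pass.

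Mimic-treated incised skin was above intact PBS skin in 8 members, all but Irf3, where 13.6% of 20463 genes were called higher. Against antimiR-29 skin it was higher in Ifnar1 (0.49 ± 0.09, adjusted p = 0.00436) and Ifnar2 (0.90 ± 0.16, adjusted p = 0.00266), where 13% of 20453 genes were called higher, and lower in Irf1, where 10.9% were called lower. These 2 groups shared no slide either, and with the slide as a fixed block 1 of the 3 members was called, Ifnar2. Against intact PBS skin, with which the mimic group shared a slide, 8 were called with that block.

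The mean order of the groups was thus the same for Stat2 and Irf1, from intact PBS through incised PBS and mimic to antimiR-29. In both genes the incised PBS and mimic arrays overlapped, and the antimiR-29 arrays lay above all mimic arrays, a difference that passed the test in Irf1 and not in Stat2. For Irf7, Irf9 and Ifnar1 the order ran from intact PBS through antimiR-29 and incised PBS to mimic. In Irf7 and Irf9 the arrays of the upper 3 groups overlapped. In Ifnar1 the 2 intact groups overlapped and the mimic arrays lay above the incised PBS arrays, and neither difference passed the adjusted test. Irf8 and Irf5 were also lowest in intact PBS skin and highest with the mimic, with incised PBS next above intact PBS. Irf3 and Ifnar2 had their lowest mean with antimiR-29, where the arrays of the 2 intact groups overlapped in both genes.

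**Figure D3:**
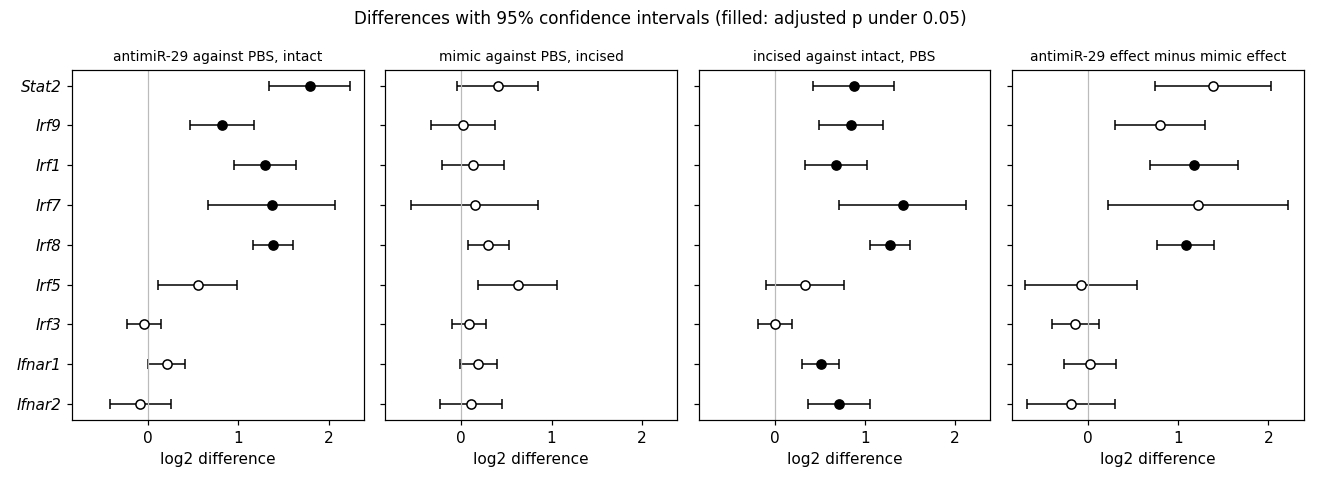
Log2 difference (horizontal axis) of each gene in 4 contrasts, with 95% confidence intervals from the limma fit; filled points have an adjusted p under 0.05. Stat2, Irf9, Irf1, Irf7 and Irf8 are filled both for antimiR-29 and for incised against intact skin, Ifnar1 and Ifnar2 for incised against intact skin only, and Irf1 and Irf8 for the difference of effects.

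Whether the antimiR-29 effect in intact skin differed from the mimic effect in incised skin was tested as the difference of the 2 log2 differences. It was called higher in 2 members, Irf8 (1.08 ± 0.14, adjusted p = 0.00847) and Irf1 (1.17 ± 0.22, adjusted p = 0.0328), where 0.465% of 20452 genes were called higher. Stat2 had the largest difference of effects, 1.39 ± 0.29, and missed the threshold (adjusted p = 0.0529). Stat2 was called when probes had to be above background on all 12 arrays, with a trended and robust variance, in the fit over probes (adjusted p = 0.0428) and without incised PBS replicate 2 (adjusted p = 0.0471). Irf7 (1.22 ± 0.45) and Irf9 (0.80 ± 0.23) did not pass, and the difference for Irf5, Irf3 and both receptor chains lay between -0.19 and 0.02. The treatments differ in agent and in the state of the skin, which this test cannot tell apart. The Irf1 call was lost without any 1 of 9 of the 12 arrays, with adjusted p up to 0.103. Neither gene was called with the slide as a fixed block (Irf8 1.05 ± 0.20, adjusted p = 0.104, and Irf1 1.06 ± 0.34, adjusted p = 0.268).

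Slide and treatment overlapped in part in the intact groups, since slide 3 held the 3 antimiR-29 arrays and 1 PBS array. On slide 3 alone the antimiR-29 differences were 1.87 in Stat2, 1.27 in Irf1, 1.85 in Irf7, 1.27 in Irf8 and 1.15 in Irf9, with no test. On slide 1 alone, with 1 mimic array, the mimic differences ran from 0.07 in Ifnar2 to 0.64 in Irf5. With the slide as a fixed block 6 members were called with antimiR-29, the same 5 and Irf5, and none with the mimic. This block is not a separate check, as its differences equal those on slide 3 alone and on slide 1 alone. It sets the antimiR-29 arrays against intact PBS replicate 3 only, and only mimic replicate 1 against the incised PBS arrays. Without intact PBS replicate 3, the array with the lowest correlation to its group, 4 members were called with antimiR-29, all but Irf7, and 7 in incised skin.

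Around the members, the pathway was described through lists of its other genes. The lists, like the members, were chosen with earlier results of these data known, so their counts are a description beside the shares of all genes given above. Of 17 interferon genes on the array, 11 were measured, and limma called none in any of the 3 comparisons of treatment or wounding. At an unadjusted p under 0.05, 1 of the 11 passed with antimiR-29, 0 with the mimic and 3 in incised skin. The gene that passed with antimiR-29 was lower there. The 11 log2 differences ran from -0.33 to 0.30 with antimiR-29, from -0.08 to 0.18 with the mimic and from -0.26 to 0.23 in incised skin. Over all genes, 4925 of 20457 passed at that threshold with antimiR-29, 2553 of 20461 with the mimic and 6427 of 20464 in incised skin. Ifnb1, the gene of interferon beta, was well above background on 1 of 12 arrays, and Ifng on 7. Interferon alpha genes are near-identical copies, so their probes can share signal.

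Of the other receptor chains, 1 of 4 rose with antimiR-29, Il10rb, a chain shared by the interferon lambda and interleukin-10 receptors, by 0.50 ± 0.11 (adjusted p = 0.0168). In incised skin 2 of 4 rose, Il10rb by 0.74 and Ifngr2 by 0.46. The interferon gamma receptor chain Ifngr1 differed by 0.05 with antimiR-29 and by 0.08 in incised skin, and Ifngr2 by 0.26 with antimiR-29, none of which passed.

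Of 8 kinases and other STATs described, 1 rose with antimiR-29, Jak2, a kinase of the interferon gamma receptor, by 0.36 ± 0.08 (adjusted p = 0.0226). In incised skin 2 of the 8 rose, Stat4 by 0.74 ± 0.22 (adjusted p = 0.0461) and Stat3 by 0.34 ± 0.10 (adjusted p = 0.0492). The receptor kinases Jak1 and Tyk2 passed in none of the comparisons, with differences of 0.03 and 0.23 with antimiR-29 and of 0.25 and 0.06 in incised skin.

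Of 5 other genes of the IRF family and their binding proteins, Irf2, which encodes a factor that competes with IRF1 for its sites, rose with antimiR-29 by 0.55 ± 0.11 (adjusted p = 0.0132). Irf2bp2, whose product binds IRF2, fell by 0.80 ± 0.12 on the log2 scale with antimiR-29 and rose by 0.63 ± 0.12 in incised skin. Irf4 fell by 0.86 ± 0.15 in incised skin (adjusted p = 0.00539). Its mean was lower again with the mimic, by a difference of -0.64 ± 0.15 that did not pass (adjusted p = 0.0947).

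Of 9 feedback inhibitors, 3 rose with antimiR-29 and 2 in incised skin. Usp18, whose product blocks signalling at IFNAR2, rose by 2.01 ± 0.30 with antimiR-29 and by 1.11 ± 0.30 in incised skin. Ptpn6, which encodes the phosphatase SHP-1, rose by 1.24 ± 0.22 with antimiR-29 (adjusted p = 0.00657) and also in incised skin (adjusted p = 0.00989). Socs1, an inhibitor of JAK kinases, rose by 1.43 ± 0.23 with antimiR-29. Of 17 activators of IRF3, IRF5 and IRF7, 3 rose with antimiR-29: Unc93b1, the transporter of endosomal Toll-like receptors (0.71 ± 0.17), Tlr7 (0.55 ± 0.15) and the adaptor Ticam1 (0.43 ± 0.12). In incised skin 4 rose and 1 fell, and Tmem173, which encodes the DNA-sensing adaptor STING, had the smallest p (1.11 ± 0.17).

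Target genes made up the lists with the most calls with antimiR-29. Of 25 ISGF3 target genes, 25 rose with antimiR-29, with a median log2 difference of 2.04 beside 0.82 for the members, and 20 rose in incised skin, with a median of 1.32. The 3 of smallest p with antimiR-29 were Dhx58 (2.21 ± 0.19), Rtp4 (2.10 ± 0.20) and Ddx58 (1.41 ± 0.15). Dhx58 and Ddx58 encode RNA sensors of the RIG-I family. Of 19 target genes of IRF1 and interferon gamma, 11 rose with antimiR-29 and 9 in incised skin. Gbp4, a guanylate-binding protein gene, rose by 1.67 ± 0.18, and the immunoproteasome genes Psmb10 and Psmb8 by 1.03 ± 0.11 and 1.01 ± 0.12. With the mimic limma called none of the 98 genes on these 8 lists. Of the 98, 12 had an unadjusted p under 0.05, as had 2553 of all 20461 genes. The mean of the mimic arrays was above that of the incised PBS arrays in 23 of the 25 ISGF3 targets, with a median log2 difference of 0.36. Among the 19 targets of IRF1 and interferon gamma it was above in 9, with a median of -0.03. The antimiR-29 difference was larger than the mimic difference in 25 of 25 ISGF3 targets (median of the difference 1.54), of which 6 passed the test of that difference after adjustment and 24 had an unadjusted p under 0.05. It was larger in 18 of 19 IRF1 and interferon gamma targets (median 1.02), of which 3 passed and 13 had an unadjusted p under 0.05. Of all 20452 genes, 2885 had an unadjusted p under 0.05 in the test of that difference.

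**Figure D4:**
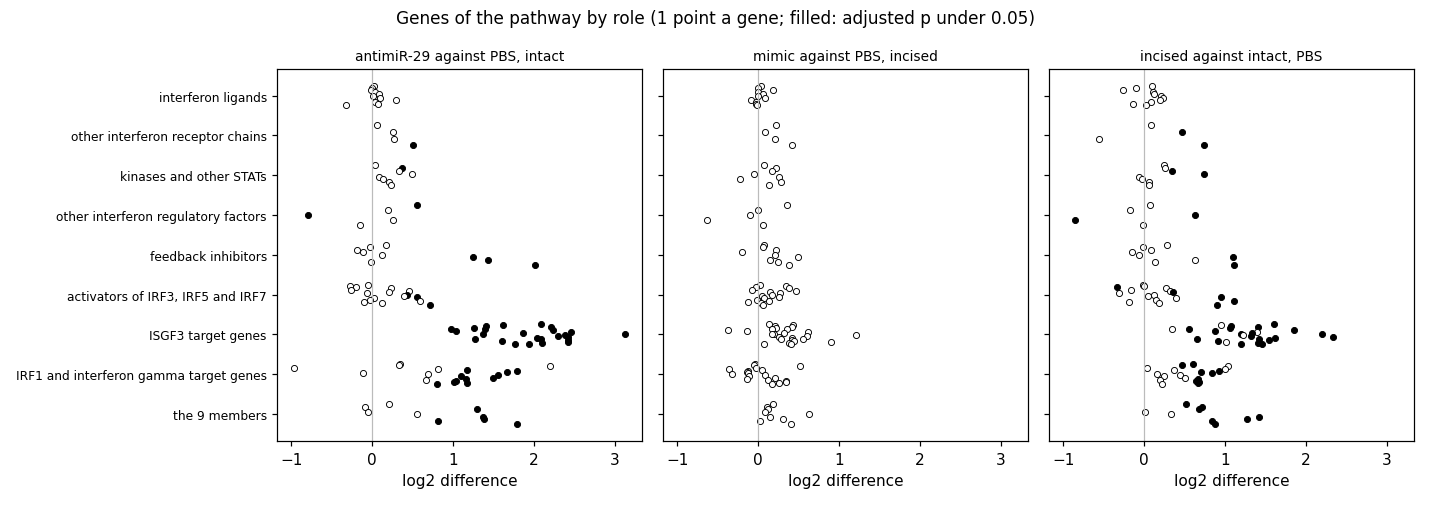
Log2 difference (horizontal axis) of every gene described from 8 pathway lists and of the 9 members in 3 comparisons, 1 point a gene; filled points have an adjusted p under 0.05. All 25 ISGF3 targets are filled and above 0 with antimiR-29, 20 in incised skin and none with the mimic.

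Irf8 and Irf5 are expressed in myeloid cells, so macrophage markers are given beside them. The mean log2 ratio of 10 macrophage markers was 2.29 to 2.77 on the intact PBS arrays and 2.34 to 3.14 on the antimiR-29 arrays, which overlapped. It was 3.23 to 3.37 on the incised PBS arrays and 3.36 to 3.47 on the mimic arrays, all above the intact arrays. With antimiR-29, 2 of the 10 markers rose, Fcgr1 (2.49 ± 0.30) and Cd68 (1.26 ± 0.19), while 7 of the 10 differences were below 0 and the median was -0.26. In incised skin 5 of 10 rose, with a median of 0.63. On antimiR-29 replicates 1 to 3 the macrophage means were 3.14, 2.45 and 2.34. The Irf8 log2 ratios of these arrays were 2.15, 2.14 and 2.11, and those of Irf5 were 1.43, 1.92 and 1.37. The mean covers markers that differed in opposite directions, and its relation to Irf8 or Irf5 was not tested.

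Some other myeloid markers differed as well. Of 6 measured neutrophil markers, 2 rose with antimiR-29, S100a9 (0.87) and Mmp8 (1.87). The median log2 difference of the 6 was 0.21, with 5 above 0 and S100a8 below it (-0.37). In incised skin 2 of the 6 rose, with a median of 1.04 and all 6 above 0. With the mimic 1 of the 6 rose, with a median of 0.01 and 3 above 0. Cxcr2 differed by 1.34 ± 0.27 with the mimic and did not pass (adjusted p = 0.0599). The mean of the 6 was 2.93 to 3.34 on the antimiR-29 arrays against 2.46 to 2.56 on the intact PBS arrays, without overlap. It was 3.96 to 4.66 on the mimic arrays against 3.48 to 3.69 on the incised PBS arrays, also without overlap. Of 5 markers of plasmacytoid dendritic cells, the cells that make most interferon alpha, 1 rose with antimiR-29, Bst2, which is also on the ISGF3 list. Of 6 measured markers of conventional dendritic cells 1 rose, Flt3 (0.86). Markers of other cells moved too. Of 6 measured markers of T and NK cells 1 rose with antimiR-29, Cd3d (1.04 ± 0.25), and the mean of the 6 was 0.17 to 0.31 against -0.23 to 0.01 on the intact PBS arrays, without overlap. Of 5 skeletal muscle markers 1 fell, Acta1 (-0.58 ± 0.13), and their mean was 4.91 to 5.20 against 5.36 to 5.55, also without overlap. With the mimic Mmp8 rose by 2.15, and 3 of 7 fibroblast markers and 1 of 5 muscle markers fell. The part of any of these cell types in the members' differences was not tested.

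**Figure D5:**
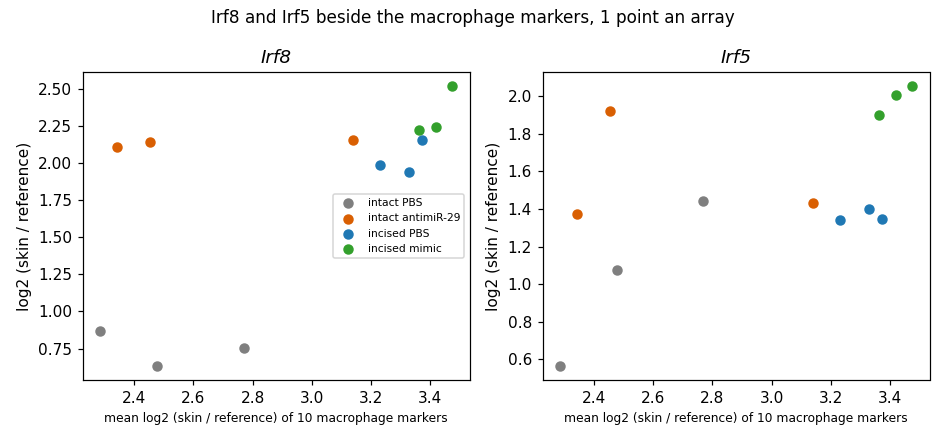
Log2 ratio of skin to reference of Irf8 and Irf5 (vertical axes) against the mean log2 ratio of 10 macrophage markers (horizontal axes), 1 point an array, coloured by group. The antimiR-29 arrays lie at 2.11 to 2.15 for Irf8 and at 1.37 to 1.92 for Irf5, with macrophage means from 2.34 to 3.14. The relation of either gene to this mean was not tested.

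The genes whose log2 ratios followed each member most closely over the 12 arrays were listed among 15228 genes, as a description in which the same reference and the group differences are shared by all genes. Stat2 was followed by Tor3a (r = 0.99), Usp18 (0.99) and Rnf213 (0.98), and Irf1 by Parp9 (0.97), Nmi (0.96) and Tor3a (0.96). Irf9 was followed by Rasgef1b (0.99), Fcgr4 (0.97) and Il4i1 (0.97), and Irf7 by Pydc4 (0.98), Rasgef1b (0.96) and Ly6e (0.96). Tor3a stood on the lists of both Stat2 and Irf1, and Rasgef1b on those of both Irf9 and Irf7. Irf8 was followed by Mpeg1 (0.97), Sp100 (0.97) and Tifa (0.96), and Irf5 by Myd88 (0.98), the adaptor of Toll-like receptors, Pira11 (0.96) and Pdpn (0.95). Ifnar1 was followed by Slc7a7 (0.99), Akap10 (0.99) and Lcp1 (0.98), and Ifnar2 by Slc38a6 (0.97), Sh3bgrl (0.96) and Lgals1 (0.95). For Irf3, whose 12 values span little, the nearest were Ormdl1 (0.93), Rab1a (0.90) and Uba2 (0.89).

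The spread of both channels is given as a description, since before loess it can also hold differences of intensity between arrays. Over the 12 arrays the Cy3 log2 signal of the 9 genes, before loess, had an SD of 0.10 to 0.27, and the Cy5 signal an SD of 0.36 to 0.79. In Stat2 these were 0.10 and 0.79, in Irf8 0.13 and 0.71, and in Irf3 0.25 and 0.36.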

How the data were processed

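RNA of 12 skin samples was hybridised with a common reference on Agilent arrays. Intensities were extracted with Agilent Feature Extraction 11.5.1.1, per the file headers, and those files were deposited with no further step used here. The mean intensities were background-corrected (normexp, offset 50) and loess-normalized within each array with limma 3.58.1 in R 4.3.3. Control and outlier spots were left out, as were 2853 probes without a gene name. A probe had to be well above background in Cy5 on at least 3 arrays, and the brightest of a gene's probes stood for it. RefSeq accessions named 70.1% of probes. One limma fit on group means of the 12 arrays gave all contrasts, adjusted by Benjamini-Hochberg over all genes. It was tested on simulated data. The authors' deposited log2 table correlated with the scanner ratios at 0.89 to 0.92 per array, its column medians lay between -0.04 and 0, and its normalization is not given in the sources used here. It served as an alternative.

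Members and lists were chosen with earlier results of these data known. Named were every member and probe, Jak1, Tyk2, Ifngr1 and Ifngr2, at most 3 genes of smallest p per list and comparison, and the 3 genes closest to each member. Marker genes, Ifnb1 and Ifng were named after their values were seen. One gene of the kinase and STAT list is not reported here. The labels call the replicates biological and say no more of their source. Alternatives were other background corrections, normalizations, filters, probe rules, fits, slide and replicate blocks, and leaving out each array. Array number limits the precision.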

Additional observations from a re-analysis of the deposited data

Results flagged for a closer look

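In 2 members the effect of antimiR-29 in intact skin differed from the effect of the mimic in incised skin by the interaction test over all genes. In Irf8 the antimiR-29 effect was larger by 1.08 on the log2 scale, and in Irf1 by 1.17. Each of the 3 antimiR-29 arrays was above each intact PBS array for both genes, as in 14.1% of all genes. Neither difference of effects was called with the slide as a fixed block (Irf8 1.05 ± 0.20, adjusted p = 0.104, and Irf1 1.06 ± 0.34, adjusted p = 0.268). The Irf1 call was also lost without any 1 of 9 of the 12 arrays.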

How the results depend on the processing

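Over 13 alternatives of processing and model (12 for the difference of effects), 420 of 459 member differences kept their sign and side of the threshold, 20 lost a call, 4 gained one, 15 changed sign without being called, and no called difference reversed. Leaving out 1 array at a time, 237 of 270 kept both, 15 lost a call, 2 gained one and none reversed when called. With antimiR-29 the count of 5 called members ran from 4 to 6 under every alternative and without any 1 array. With the mimic it was 0 except for 1 with only the compared groups in the fit, and 0 without any 1 array. In incised against intact skin it was 7, 6 with Cy5 alone or the deposited log2 table, 5 with only the compared groups, 1 with the slide as a fixed block, and 4 to 7 without 1 array. For the difference of effects it was 2. It rose to 3, with Stat2, when probes had to be above background on all 12 arrays or with a trended and robust variance. It fell to 1 with Cy5 alone, the deposited log2 table, the mean over probes or the slide as a random block, was 0 with the slide as a fixed block, and was 1 to 2 without 1 array. Same-numbered arrays did not deviate together in every pair, with correlations from -0.44 to 0.29, so the replicate numbers were not taken as a pairing. With the replicate block the counts were 5, 0, 7 and 1. Chosen after seeing the data, the slide as a block and leaving out 1 array were also run for the comparisons across treatment and wound. For antimiR-29 against incised PBS skin the count of 4 was 0 with the fixed and 3 with the random slide block, and 2 to 3 without 1 array. For the mimic against antimiR-29 skin the count of 3 was 1, 2 and 2 to 3, and for the mimic against intact PBS skin it was 8 in all of these. The causes of these changes were not tested. The number of arrays, 3 a group, limits the precision, and the dim Irf1 probe has a signal near background.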
